A study of Mus musculus with 6 samples.

Results

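Natural killer (NK) cells are innate lymphocytes that kill infected and transformed cells without a clonal antigen receptor. Perforin opens the membrane of the target, granzymes enter and cleave its proteins, and the decision to fire is set by a balance of inhibitory receptors for MHC class I, activating receptors and cytokines such as interleukin-15 and interleukin-12. In the mouse, NK cells mature from a CD27-bearing to a CD11b-bearing (Itgam) stage, and the late stage gains KLRG1 and the egress receptor S1PR5. The lung holds many late-stage NK cells, which reach it through the blood.

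NK cells were taken from droplet single-cell RNA libraries of CD45-positive leukocytes of mouse lung, with 3 libraries of lungs infiltrated by acute myeloid leukaemia (AML lung), a cancer of myeloid precursors, and 3 libraries of normal lung. Both groups were perfused, digested with collagenase and DNase I and enriched on CD45 beads. The series sets the immune microenvironment of AML-infiltrated lung against that of normal lung. The labels used here name no strain, age, sex, leukaemia model, dose or time, and do not tell whether each library of a group is a different animal. The p-values therefore describe the scatter among these 6 libraries, which may be technical. The cells were chosen by their own transcripts. A member had at least 3 of 8 genes (Ncr1, Klrb1c, Klre1, Klra8, Klra4, Gzma, Prf1 and Eomes), no UMI (unique molecule counted) of the T cell genes Cd3e, Cd3d and Cd3g, at most 1 UMI over 3 cycling genes (Mki67, Top2a, Birc5) and at most 1 over Cd79a, Plet1, Retnlg, Ace and Vcan. This gave 2892 of 71634 kept cells. AML lung replicates 1, 2 and 3 held 208, 402 and 1200 of them, and normal lung replicates 1, 2 and 3 held 179, 247 and 656.

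The rule fixes that its own genes are high in the members, so their values describe the cells and do not check the label. Killer receptor Ncr1 (NKp46) had a UMI in 91.8%, 67.7% and 33.8% of members in AML lung replicates 1, 2 and 3, against 93.3%, 84.6% and 63.7% in normal lung replicates 1, 2 and 3. Its share in all other kept cells of a library was 0.926% to 1.29% in AML lung and 1.04% to 1.33% in normal lung. The member median was 7406.5, 4109.5 and 1155 UMIs per cell in AML lung and 7892, 4650 and 2989.5 in normal lung, and the shares with a UMI were lowest where the median was lowest. In CPM, the UMIs of a gene scaled to a common total of the summed member UMIs, perforin (Prf1) stood at 894, 469 and 433 in AML lung and at 981, 989 and 845 in normal lung, and granzyme A (Gzma) at 5770, 3302 and 2881 in AML lung and at 4654, 5993 and 5600 in normal lung. At the edge of the rule, 2, 66 and 538 members of AML lung and 4, 6 and 99 of normal lung had exactly 3 of the 8 genes, and 3, 64 and 580 cells of AML lung and 4, 6 and 111 of normal lung met every other condition with 2. Of the cells with at least 3 of the genes, the condition on Cd3 removed 27, 88 and 129 in AML lung and 21, 34 and 59 in normal lung.

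AML lung replicate 3 stood apart. Its members carried 4338 CPM summed over 40 genes of B cells, macrophages, monocytes, neutrophils and their precursors, plasmacytoid dendritic cells and endothelial cells, against 86.0 and 315 CPM in AML lung replicates 1 and 2 and 110, 189 and 434 CPM in normal lung. The neutrophil gene S100a9 alone reached 1049 CPM there, against 13.9 and 28.7 in the other AML lung libraries and 9.53 to 25.6 in normal lung. None of the 40 genes was at 0 in that library, whereas AML lung replicate 1 had 15 at 0 and replicate 2 had 7, against 10, 14 and 4 in normal lung. Members with at least 2 UMIs and over 0.2% of their UMIs from the 40 genes, called carrying cells here, numbered 0, 31 and 575 in AML lung and 0, 4 and 101 in normal lung. Without carrying cells the 40 genes still summed to 684 CPM in AML lung replicate 3. They summed to 86.0 and 187 CPM in AML lung replicates 1 and 2, and to 110, 78.5 and 123 CPM in normal lung. Leaving out these cells thus lowered the transcripts of other cell types and did not remove them. Results on genes are therefore given also without AML lung replicate 3 and without carrying cells, and the part that these transcripts have in the results was otherwise not tested. Pairs of libraries shared 1 to 118 barcodes of kept cells and no barcode of a member.

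**Figure D1:**
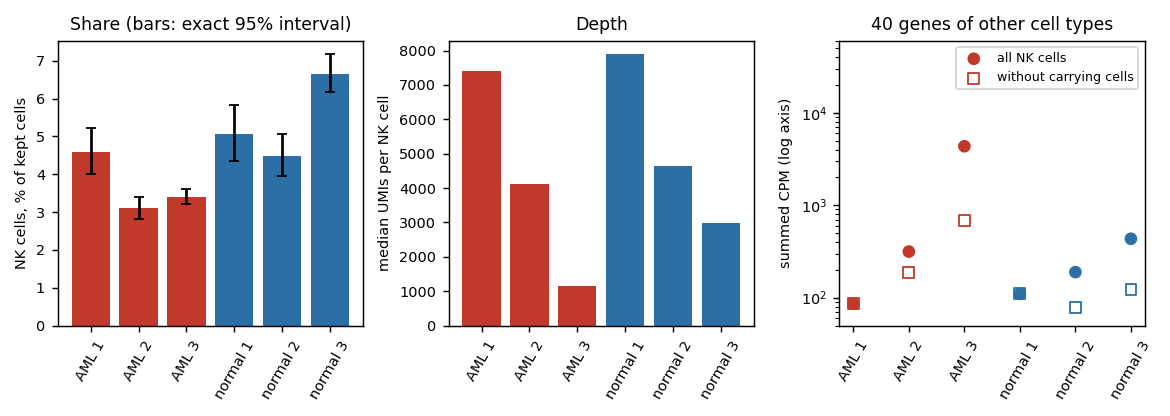
NK cells in the 3 AML lung libraries (red) and the 3 normal lung libraries (blue): share of kept cells in percent with its exact 95% interval, median UMIs per NK cell, and the summed CPM of 40 genes of other cell types on a log axis, for all NK cells (filled) and without carrying cells (open). AML lung replicate 3 has the shallowest cells, at a median of 1155 UMIs, and the highest sum, 4338 CPM.

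NK cells made up 4.58%, 3.099% and 3.41% of kept cells in AML lung and 5.06%, 4.49% and 6.66% in normal lung. AML lung averaged 3.70% ± 0.784 and normal lung 5.40% ± 1.13 (SD, n = 3 each), a difference of -1.71 percentage points, and of -1.08 without normal lung replicate 3. AML lung replicate 1 lay between normal lung replicates 1 and 2, so the groups overlapped, and the two-sided exact permutation p was 0.2, where 0.1 is the smallest this design allows. As a share of lymphocytes, AML lung averaged 15.5% ± 4.86 and normal lung 14.5% ± 2.71 (SD, n = 3 each; exact permutation p = 0.9), so the direction depended on the denominator. With every cell thinned to 500 UMIs before the rule was applied, the share was 3.48%, 1.49% and 1.69% in AML lung and 3.42%, 3.07% and 4.48% in normal lung.

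Apart from the genes of the rule, the transcripts most concentrated in the members relative to other cells were other NK genes. The 10 with the highest ratio among genes at 50 CPM or more in every library were Styk1, Adamts14, Klrb1a, Klri2, Klra9, Xcl1, D5Ertd615e, Cma1, Fam184a and Klrc2, with a mean level 52.9 to 81.9 times that of other cells. Klra9, Klri2, Klrb1a and Klrc2 belong to the killer lectin-like receptor cluster, and Xcl1 encodes a chemokine that draws cross-presenting dendritic cells. Members were chosen by co-expressed genes, so this is a description of the cells and no test. Styk1 had 362, 287 and 149 CPM in AML lung and 429, 433 and 474 CPM in normal lung. Adamts14 had 546, 342 and 274 CPM in AML lung and 576, 522 and 543 CPM in normal lung. Both were below normal lung in AML lung replicates 2 and 3, and Styk1 in replicate 1 as well.

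NK cells of AML lung had more transcript of Bcl2a1b, which encodes a survival protein of the BCL2 family, and of Pglyrp1, a peptidoglycan recognition protein stored in granules. Bcl2a1b (chromosome 9, 89199209 to 89207827, plus strand, mm10) had 110, 102 and 136 CPM in AML lung and 17.7, 28.6 and 15.2 CPM in normal lung. The lowest AML lung library was above the highest normal lung library. The log2 change was 2.52 ± 0.255 (SE), with an adjusted p of 0.0445 in edgeR's quasi-likelihood test. Pglyrp1 (chromosome 7, 18871331 to 18890459, plus strand) had 185, 213 and 212 CPM in AML lung and 87.7, 79.9 and 84.6 CPM in normal lung, again without overlap, with a log2 change of 1.27 ± 0.132 (SE) and an adjusted p of 0.0445 in the same test. These were the only 2 of 9262 genes that passed an adjusted p of 0.05 in that fit, 0.0216% of those tested, and 0 were lower. At an unadjusted p under 0.05, 7.76% were higher and 5.02% lower in AML lung. DESeq2 called 72 higher and 41 lower, 1.22% of the same genes (0.777% and 0.443%), and both genes were among them. Leaving out any 1 of the other 5 libraries left 0 calls, with 649 to 1478 genes at an unadjusted p under 0.05.

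The 2 genes that passed are shown with the 250 bases before and 50 bases after their RefSeq start, because both were higher in the same libraries. For Pglyrp1 this start lies inside the GENCODE gene span given above, which includes transcripts that begin further upstream. The promoters come from RefSeq on GRCm38.p6 and are written 5′ to 3′ along the gene. Capitals mark a match to the consensus of the NF-kB transcription factor family, searched on both strands.
Bcl2a1b, chr9:89199023-89199322, plus strand: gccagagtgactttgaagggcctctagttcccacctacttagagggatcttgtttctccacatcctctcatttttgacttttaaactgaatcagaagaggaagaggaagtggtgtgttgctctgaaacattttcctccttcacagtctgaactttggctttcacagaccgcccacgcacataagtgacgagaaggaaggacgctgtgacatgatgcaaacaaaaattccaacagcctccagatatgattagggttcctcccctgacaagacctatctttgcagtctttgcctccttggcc
Pglyrp1, chr7:18884440-18884739, plus strand: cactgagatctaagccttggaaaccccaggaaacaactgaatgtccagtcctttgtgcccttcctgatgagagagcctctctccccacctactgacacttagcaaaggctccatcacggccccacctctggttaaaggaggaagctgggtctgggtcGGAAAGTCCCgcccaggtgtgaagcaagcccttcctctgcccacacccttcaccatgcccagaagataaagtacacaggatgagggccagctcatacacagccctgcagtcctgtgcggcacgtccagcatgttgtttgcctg
The window of Pglyrp1 held 1 match and that of Bcl2a1b none. A match was held by 8.46% of all 32851 promoters, and by 2 of the 15 promoters listed for 11 of the 12 genes of smallest p described next. The other of the 2 belongs to Pde1c, whose values lay below normal lung in every AML lung library.

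Other leukocytes of the same lungs also had these transcripts. Bcl2a1b stood at 441, 301 and 269 CPM in all other cells of AML lung and at 167, 181 and 163 CPM in those of normal lung. Pglyrp1 stood at 305, 222 and 294 CPM in other cells of AML lung and at 92.7, 102 and 101 CPM in those of normal lung. The level in members was 24.9%, 32.6% and 47.4% of that in other cells for Bcl2a1b in AML lung, and 11.03%, 16.2% and 9.58% in normal lung. For Pglyrp1 it was 60.5%, 92.5% and 67.8% in AML lung and 98.7%, 80.2% and 86.2% in normal lung, so relative to other cells the groups overlapped, and AML lung replicates 1 and 3 lay below normal lung. The 40 genes of other cell types stood in members at 0.640%, 3.58% and 27.8% of their level in other cells in AML lung, and at 0.655%, 1.46% and 4.07% in normal lung. The part of transcripts from other cells in the 2 results was not tested. Bcl2a1a, Bcl2a1b and Bcl2a1d are near-identical copies, and reads shared between them make the assignment to one copy uncertain.

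The 6 genes of smallest p in each direction are described next, 12 in all, of which only Bcl2a1b and Pglyrp1 passed in the fit of all 6 libraries. Traf1, an adaptor of tumour necrosis factor receptors, had 150, 166 and 116 CPM in AML lung and 60.2, 61.6 and 58.1 CPM in normal lung. Nrgn, a calmodulin-binding protein known from neurons, had 267, 188 and 103 CPM in AML lung and 20.9, 38.9 and 23.0 CPM in normal lung. Both were without overlap, and the AML lung libraries were spread more widely for Nrgn than for Traf1. Nrgn was far scarcer outside the members, with 5.42, 5.78 and 9.80 CPM in other cells of AML lung and 1.57, 4.72 and 3.75 CPM in those of normal lung. Bcl2a1d had 43.0, 42.5 and 84.4 CPM in AML lung and 11.1, 11.7 and 9.98 CPM in normal lung. Limd2, a LIM-domain protein, had 264, 258 and 210 CPM in AML lung and 126, 140 and 128 CPM in normal lung. The log2 change was 1.27 ± 0.168 for Traf1, 2.77 ± 0.383 for Nrgn, 2.37 ± 0.322 for Bcl2a1d and 0.89 ± 0.140 for Limd2 (SE), with edgeR adjusted p between 0.105 and 0.167.

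The 6 genes of smallest p on the lower side were lower in all 3 AML lung libraries than in any normal lung library. Hs3st3b1, a heparan sulfate sulfotransferase, had 63.2, 62.4 and 61.0 CPM in AML lung and 150, 128 and 132 CPM in normal lung. Gpc1 (glypican 1), a heparan sulfate proteoglycan of the cell surface, had 26.6, 20.4 and 15.9 CPM in AML lung and 47.1, 63.8 and 56.4 CPM in normal lung. Pde1c, a phosphodiesterase of cyclic nucleotides, had 43.0, 34.8 and 50.8 CPM in AML lung and 134, 107 and 98.5 CPM in normal lung. Pgm2l1, which makes glucose 1,6-bisphosphate, had 56.9, 60.2 and 85.7 CPM in AML lung and 162, 163 and 151 CPM in normal lung. For Zdhhc15, a palmitoyltransferase, the values were 58.8, 59.0 and 67.3 CPM in AML lung and 161, 132 and 106 CPM in normal lung. Cabcoco1 had 46.2, 34.2 and 34.9 CPM in AML lung and 70.7, 106 and 104 CPM in normal lung. The log2 change ran from -1.41 ± 0.232 (SE) for Gpc1 to -1.10 ± 0.184 (SE) for Zdhhc15, with edgeR adjusted p from 0.0682 for Hs3st3b1 to 0.188.

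**Figure D2:**
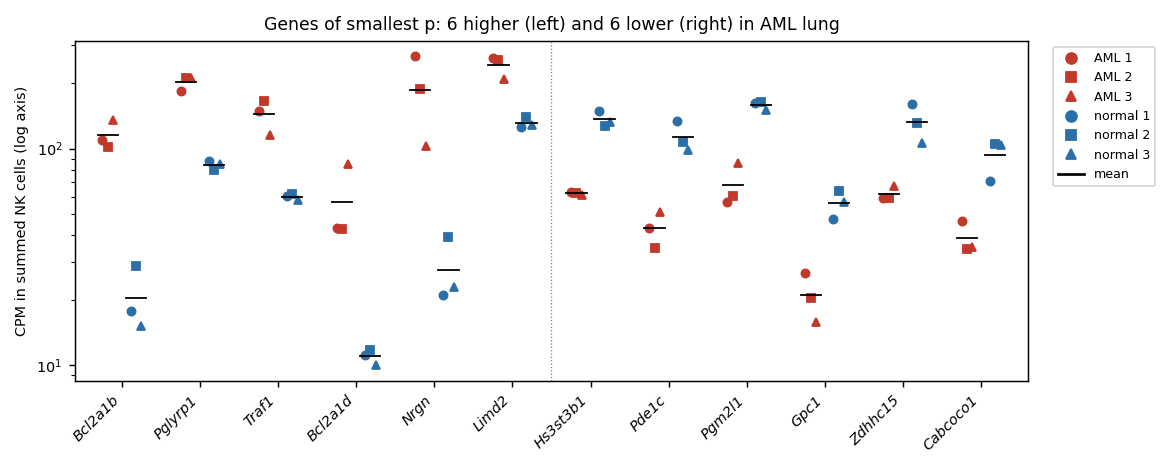
CPM of summed NK cells on a log axis for the 6 genes of smallest p on each side, with 1 symbol per library, AML lung in red to the left of normal lung in blue, and the mean as a black line. All 12 genes separate the groups, and Bcl2a1d in AML lung replicate 3, at 84.4 CPM, lies well above the other 2 AML lung libraries.

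Leaving out AML lung replicate 3, edgeR placed 36 genes higher and 38 lower at an adjusted p under 0.05, 0.783% of 9449 tested (0.381% and 0.402% by direction). Without carrying cells 14 were higher and 3 lower, 0.188% of 9034 (0.155% and 0.0332%). With carrying cells left out and at least 5 of the 8 genes required, the counts were 23 higher and 16 lower, 0.437% of 8930 (0.258% and 0.179%). The 3 fits shared 16 called genes, chosen for description after their values were seen. Besides 9 of the 12 genes above (all but Pde1c, Zdhhc15 and Cabcoco1) they were Ccl3, Tgfb1, Cenpa, Fgr, Lilr4b, Pecam1 and the gene model Gm20528, all higher in AML lung. Ccl3, a chemokine for monocytes and lymphocytes, had 393, 300 and 229 CPM in AML lung and 173, 174 and 146 CPM in normal lung. Tgfb1, which encodes a cytokine that restrains NK cells, had 245, 225 and 244 CPM in AML lung and 103, 144 and 147 CPM in normal lung, while other cells had 242, 274 and 264 CPM in AML lung and 282, 284 and 273 CPM in normal lung. Fgr, a Src family kinase, had 99.9, 124 and 349 CPM in members of AML lung and 43.2, 46.2 and 54.7 CPM in those of normal lung. Other cells had 569 to 963 CPM of it in AML lung and 326 to 388 CPM in normal lung. Pecam1 (CD31) had 145, 260 and 370 CPM in members of AML lung and 64.1, 66.7 and 104 CPM in those of normal lung. Other cells had 491 to 864 CPM of it in AML lung and 152 to 286 CPM in normal lung. The AML lung members stood at 10.6%, 12.4% and 57.6% of other cells for Fgr and at 16.8%, 32.8% and 70.7% for Pecam1. The normal lung members stood at 11.6%, 14.5% and 16.7% for Fgr and at 43.9%, 30.5% and 37.6% for Pecam1. Relative to other cells the groups thus overlapped for both genes, and only AML lung replicate 3 lay above normal lung.

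Another 4 genes were also chosen after their values were seen. Tnfrsf9 (4-1BB), a costimulatory receptor of activated NK and T cells whose signal runs through TRAF proteins, had 584, 323 and 178 CPM in AML lung and 173, 147 and 108 CPM in normal lung. The group ranges did not overlap, and AML lung replicate 3 lay just above the highest normal lung library. The log2 change was 1.35 ± 0.393 (SE; edgeR adjusted p = 0.288), with an adjusted p of 0.00971 without AML lung replicate 3. Myb, a transcription factor of progenitors, had 125, 163 and 80.6 CPM in AML lung and 66.8, 54.3 and 67.7 CPM in normal lung. Its edgeR adjusted p was 0.288 in all 6 libraries and 0.00971 without AML lung replicate 3. Rab27b had 32.3, 17.7 and 15.9 CPM in AML lung and 62.2, 61.6 and 98.0 CPM in normal lung. Clnk, an adaptor of immunoreceptors, had 393, 266 and 213 CPM in AML lung and 617, 577 and 573 CPM in normal lung, with a log2 difference of -1.02 ± 0.217 (SE; adjusted p = 0.288 in edgeR, and 0.0607 without AML lung replicate 3).

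The gene lists that follow are described by counts and medians. List genes named beside the 2 most abundant of each list were chosen after their values were seen.

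Inhibitory receptors, some of which bind MHC class I, showed no gene past the threshold among 15 tested. Of these, 0 lay above and 3 lay below normal lung in every AML lung library. The median log2 change was 0.04, beside 0.03 over all genes, and with 1 library left out it lay on both sides of 0, at -0.21 without AML lung replicate 1, 0.12 without AML lung replicate 2, 0.22 without AML lung replicate 3, 0.02 without normal lung replicate 1, 0.07 without normal lung replicate 2 and also 0.11 without normal lung replicate 3. Over all genes tested, 10.2% lay above and 9.3% below in this sense, and the counts of every later list are to be read beside these shares. Klrd1 (CD94) and Klra7 (Ly49G) were the most abundant. Klrd1 had 564, 501 and 300 CPM in AML lung and 502, 542 and 506 CPM in normal lung, and Klra7 had 583, 442 and 338 CPM in AML lung and 427, 378 and 462 CPM in normal lung, so both overlapped. The 3 that lay below were Klrg1, Klrc1 (NKG2A) and Cd244a. Klrg1 had 119, 53.0 and 91.4 CPM in AML lung and 129, 136 and 131 CPM in normal lung (-0.59 ± 0.262 on the log2 scale, SE; adjusted p = 0.397 in edgeR). Checkpoint receptors stood at unlike levels. Pdcd1 (PD-1) had a single library above 0 in each group, replicate 3 of AML lung at 1.90 CPM and replicate 2 of normal lung at 2.20 CPM. Tigit had 94.2, 38.1 and 81.3 CPM in AML lung and 65.5, 78.4 and 61.6 CPM in normal lung. Havcr2 (TIM-3) had 6.96, 13.2 and 132 CPM in AML lung and 3.27, 5.13 and 9.98 CPM in normal lung, so its level rested on AML lung replicate 3.

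Inhibitory receptors are switched on cell by cell, so that single NK cells carry different sets. With members thinned to 1000 UMIs, a mean of 1.16, 0.817 and 0.636 of 8 such genes (Klra1, Klra3, Klra5, Klra6, Klra7, Klra9, Klrc1 and Klrg1) had a UMI per cell in AML lung, and 1.11, 1.05 and 1.08 in normal lung. Cells with none of the 8 made up 22.2%, 41.7% and 51.3% in AML lung and 27.5%, 32.6% and 30.2% in normal lung. AML lung replicates 2 and 3 lay above normal lung and replicate 1 below it. The 8 genes and this count were chosen after their levels were seen.

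Of 16 activating receptors and adaptors tested, 0 passed, 2 lay above and 2 below. That is 12.5% each way, near the 10.2% above and 9.3% below of all genes. The median log2 change was 0.14. It was 0.03 without AML lung replicate 2, 0.09 without AML lung replicate 3 and also 0.07 without normal lung replicate 1. The signalling adaptors Tyrobp (DAP12) and Fcer1g were the most abundant. Tyrobp had 1453, 1422 and 1728 CPM in AML lung and 1076, 1482 and 1428 CPM in normal lung, and Fcer1g had 1379, 1140 and 1504 CPM in AML lung and 998, 1340 and 1088 CPM in normal lung. Cd226 (DNAM-1), an activating receptor for the nectin-like ligands of stressed and tumour cells, had 80.9, 49.1 and 75.6 CPM in AML lung and 129, 125 and 160 CPM in normal lung. The highest AML lung library lay below the lowest normal lung library, and the log2 change was -1.01 ± 0.213 (SE; edgeR adjusted p = 0.288). It passed without AML lung replicate 3, at an edgeR adjusted p of 0.0385. Klrc2 (NKG2C) had 403, 251 and 274 CPM in AML lung and 478, 482 and 522 CPM in normal lung (-0.68 ± 0.190 on the log2 scale, SE; adjusted p = 0.288 in edgeR). Klrk1 (NKG2D), which reads stress ligands on tumour cells, had 870, 855 and 530 CPM in AML lung and 888, 896 and 817 CPM in normal lung, with a log2 change of -0.21 ± 0.201 (SE).

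Of 13 cytotoxic effectors and regulators tested outside the rule, 0 passed, 1 lay above and 1 below. That is 7.69% each way, near the 10.2% above and 9.3% below of all genes. The median log2 change was -0.15. It was -0.37 without AML lung replicate 1, -0.02 without AML lung replicate 3 and also -0.06 without normal lung replicate 2. Granzyme B (Gzmb) had 693, 345 and 291 CPM in AML lung and 498, 617 and 364 CPM in normal lung, so the groups overlapped widely. Nkg7, a granule membrane protein needed for degranulation, had 1751, 1365 and 1092 CPM in AML lung and 1333, 1815 and 1632 CPM in normal lung. Srgn, the granule proteoglycan serglycin, had 926, 860 and 2244 CPM in AML lung and 688, 936 and 813 CPM in normal lung. Rab27a, a GTPase that docks lytic granules, had 171, 104 and 213 CPM in AML lung and 302, 333 and 258 CPM in normal lung, without overlap (-0.87 ± 0.249 on the log2 scale, SE; adjusted p = 0.288 in edgeR, and 0.0351 without AML lung replicate 3).

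Of 8 cytokine and chemokine genes tested, 0 passed with all members, and Ccl3 and Tgfb1 passed without carrying cells and without AML lung replicate 3. The median log2 change of the 8 was 0.36, and its direction turned with 1 library left out. It was -0.16 without AML lung replicate 1, 0.75 without normal lung replicate 2 and also 0.03 without normal lung replicate 3. The most abundant was Ccl5, at 9820, 8217 and 6332 CPM in AML lung and 7086, 8847 and 7914 CPM in normal lung. Ccl4 followed with 1315, 785 and 588 CPM in AML lung and 639, 1202 and 519 CPM in normal lung. Ifng, the signature cytokine of NK cells, had 132, 93.8 and 83.2 CPM in AML lung and 101, 114 and 108 CPM in normal lung, with a log2 change of -0.07 ± 0.190 (SE).

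Among 26 cytokine receptors and signalling genes, 0 passed, 4 lay above and 3 below, and the median log2 change was 0.12. It was -0.0046 without AML lung replicate 1, 0.08 without AML lung replicate 2 and also 0.19 without AML lung replicate 3. Jak1 and Il18rap were the most abundant. Jak1 had 1236, 998 and 1016 CPM in AML lung and 1332, 1271 and 1439 CPM in normal lung, and Il18rap had 1128, 1272 and 643 CPM in AML lung and 962, 1021 and 1110 CPM in normal lung. Stat3, which relays interleukin-6, interleukin-10 and interleukin-21, had 971, 969 and 947 CPM in AML lung and 668, 653 and 693 CPM in normal lung, with a log2 difference of 0.52 ± 0.121 (SE; adjusted p = 0.288 in edgeR). Cish, a feedback inhibitor of interleukin-15 signalling, had 4.43, 2.21 and 4.44 CPM in AML lung and 8.51, 14.7 and 9.11 CPM in normal lung (-1.52 ± 0.412 on the log2 scale, SE; adjusted p = 0.288 in edgeR).

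Genes of the early and the late stage of NK maturation had log2 changes of opposite sign, and none passed the threshold with all members. All 10 immature genes had a positive log2 change, with a median of 0.67, and 4 of them (Kit, Cd7, Ly6e and Ctla2a) lay above normal lung in every AML lung library. All 10 mature genes had a negative one, with a median of -0.28, and 3 (Klrg1, S1pr5 and Prdm1) lay below. Over all tested genes 4909 of 9262 were positive, 10.2% lay above and 9.3% below. The shares were 40% above for the immature genes and 30% below for the mature genes. Under the other settings 8 to 10 of the immature genes stayed positive and 8 to 10 of the mature genes negative. The exceptions came when a library was left out, and for the mature list also with at least 2 of the rule genes, with at least 1000 UMIs or without ILC1 genes, and Emb was below 0 without AML lung replicate 3. The median ranged from 0.58 to 0.77 for the immature genes and from -0.58 without AML lung replicate 1 to -0.12 without AML lung replicate 2 for the mature ones.

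Cd27 had 106, 110 and 45.1 CPM in AML lung and 62.8, 35.9 and 46.4 CPM in normal lung, and replicate 3 of AML lung fell among the normal lung values. Its log2 change was 0.84 ± 0.348 (SE; edgeR adjusted p = 0.369, and 0.0284 without AML lung replicate 3). S1pr5 had 75.9, 35.3 and 48.3 CPM in AML lung and 94.9, 93.8 and 97.6 CPM in normal lung (-0.85 ± 0.258 on the log2 scale, SE; adjusted p = 0.297 in edgeR). Prdm1 (BLIMP-1), a transcription factor of terminal maturation, had 89.8, 43.0 and 73.7 CPM in AML lung and 153, 141 and 149 CPM in normal lung. Its log2 change was -1.10 ± 0.247 (SE; edgeR adjusted p = 0.288, and 0.0503 without AML lung replicate 3). Kit, the stem cell factor receptor, had 17.1, 39.7 and 25.4 CPM in AML lung and 14.4, 12.5 and 13.01 CPM in normal lung. The most abundant of the lists were Emb and Ly6e on the immature side and Zeb2 and Gzmb on the mature side. Emb had 348, 643 and 631 CPM in AML lung and 410, 477 and 623 CPM in normal lung. Ly6e had 262, 294 and 706 CPM in AML lung and 154, 229 and 188 CPM in normal lung. Zeb2 had 1308, 736 and 1681 CPM in AML lung and 1522, 1260 and 1295 CPM in normal lung.

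**Figure D3:**
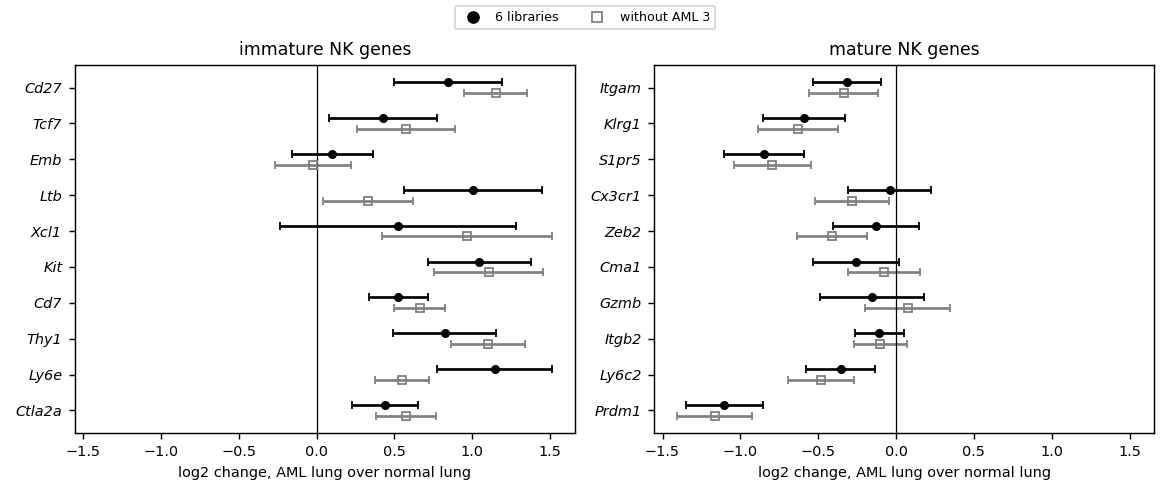
Log2 change of AML lung over normal lung with its standard error for 10 genes of immature and 10 genes of mature NK cells, in all 6 libraries (filled circles) and without AML lung replicate 3 (open squares). With 6 libraries all immature genes lie to the right of 0 and all mature genes to the left, and the largest decrease is that of Prdm1, at -1.10.

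The same stages were counted cell by cell, with members thinned to 1000 UMIs and 1, 42 and 481 shallower members left out in AML lung and 1, 5 and 116 in normal lung. Members with a UMI of Cd27 and none of Itgam made up 9.18%, 8.06% and 2.64% in AML lung and 5.06%, 1.65% and 3.33% in normal lung. Those with Itgam and no Cd27 made up 27.1%, 18.1% and 22.7% in AML lung and 28.7%, 26.9% and 24.4% in normal lung. Klrg1 had a UMI in 8.70%, 6.67% and 7.79% of members in AML lung and in 12.9%, 13.2% and 9.44% in normal lung, without overlap. At 500 UMIs the Klrg1 shares overlapped, at 7.69%, 2.24% and 4.83% in AML lung and 7.26%, 4.05% and 4.27% in normal lung, and the difference was -0.272 percentage points, against -4.15 at 1000 UMIs. They overlapped also with cells with ILC1 genes left out, at 10.9%, 5.65% and 7.64% in AML lung and 7.45%, 16.4% and 12.3% in normal lung. Unthinned, the mean share with Klrg1 was 23.4% in AML lung and 35.2% in normal lung. The two-sided exact permutation p for Klrg1 at 1000 UMIs was 0.1, the smallest possible, and 0.75 after adjustment over the 10 shares compared. Gzmb had a UMI in 41.5%, 24.4% and 18.1% in AML lung and in 25.8%, 34.7% and 24.3% in normal lung, so it overlapped.

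Of 19 transcription factors of NK cells tested, 0 passed, 1 lay above and 3 below, and the median log2 change was -0.13. It was -0.30 without AML lung replicate 1 and also -0.21 without AML lung replicate 3. Zeb2 and Bach2 were the most abundant, and Bach2, a repressor that keeps lymphocytes in an early state, had 1129, 1053 and 952 CPM in AML lung and 891, 829 and 888 CPM in normal lung. Tbx21 (T-bet), which drives maturation, had 383, 386 and 281 CPM in AML lung and 384, 412 and 447 CPM in normal lung. Of the 18 trafficking genes tested 0 passed, 0 lay above and 2 below, and the median log2 change was -0.05. Without AML lung replicate 3, 1 of 19 passed as higher and 1 as lower in AML lung, with a median of -0.10. Itga4 had 1352, 971 and 1138 CPM in AML lung and 1338, 1154 and 1085 CPM in normal lung, and Selplg had 526, 474 and 519 CPM in AML lung and 491, 592 and 610 CPM in normal lung.

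Innate lymphoid cells type 1 (ILC1) are tissue-resident relatives of NK cells, and 15, 25 and 148 members of AML lung and 17, 29 and 76 of normal lung had a UMI of at least 1 of 6 ILC1 genes. Of the 7 ILC1 and residency genes tested, 0 passed, 0 lay above and 1 below. Without AML lung replicate 3, 2 of 8 passed, both lower in AML lung. Inpp4b had 149, 102 and 179 CPM in AML lung and 196, 368 and 364 CPM in normal lung (-1.11 ± 0.287 on the log2 scale, SE; adjusted p = 0.288 in edgeR, and 0.0422 without AML lung replicate 3). Rgs1 had 185, 98.2 and 201 CPM in AML lung and 120, 227 and 257 CPM in normal lung. Cxcr6 had at most 6.60 CPM in any library.

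Type I interferon-stimulated genes, which respond to interferon-alpha and interferon-beta, had the highest share of genes above normal lung among the lists of NK cell functions and responses. Of 23 tested, 0 passed, 13 lay above normal lung in every AML lung library and 1 below, which is 56.5% above, against 10.2% of all genes. The median log2 change was 0.83, and it was 0.56 without AML lung replicate 3, 0.89 without carrying cells and 0.42 with equal cell numbers per library. Most marker lists of other cell types with tested genes had positive medians as well. These were 4.18 for neutrophils, 2.12 for alveolar macrophages, 0.88 for endothelial cells and 0.75 for classical monocytes. They were 0.72 for B cells, 0.59 for conventional dendritic cells and 0.09 for T cells, against -0.57 for 1 marker of type 2 innate lymphoid cells. Without AML lung replicate 3 those from neutrophils to conventional dendritic cells were 0.34, -0.92, 0.65, -0.48, -0.23 and 0.80 in this order. The 5 tested markers of nonclassical monocytes had a median of 1.83, of 1.37 without carrying cells and of 0.72 without AML lung replicate 3, with 2 above. All 8 such markers summed to 469 to 1148 CPM in AML lung and 401 to 439 CPM in normal lung. The 3 tested markers of plasmacytoid dendritic cells, 1 of which is the interferon-stimulated gene Bst2, had a median of 1.32, of 1.33 and of 1.25 in the same settings, with 2 above. All 6 such markers summed to 160 to 355 CPM in AML lung and 154 to 170 CPM in normal lung. Their part in the result was not tested. Irf7, the amplifier of the interferon response, had 34.1, 25.4 and 41.9 CPM in AML lung and 11.1, 20.5 and 14.3 CPM in normal lung, with a log2 difference of 1.15 ± 0.298 (SE; adjusted p = 0.288 in edgeR). Xaf1 had 33.5, 40.8 and 29.8 CPM in AML lung and 16.4, 19.1 and 16.9 CPM in normal lung (0.995 ± 0.214 on the log2 scale, SE; adjusted p = 0.288 in edgeR). Bst2 (tetherin) had 41.1, 55.2 and 83.2 CPM in AML lung and 9.16, 29.3 and 22.1 CPM in normal lung. The most abundant were Trim30a, at 199, 195 and 207 CPM in AML lung and 167, 162 and 143 CPM in normal lung, and Ifi203, at 190, 150 and 172 CPM in AML lung and 194, 183 and 174 CPM in normal lung.

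Of 25 genes induced by interferon gamma, 0 passed, 8 lay above and 1 below, and the median log2 change was 0.29, against 0.19 without normal lung replicate 1. The share above was 32% and that below 4%, beside 10.2% and 9.3% of all genes. The most abundant belong to MHC class I. B2m had 1487, 1620 and 1575 CPM in AML lung and 1117, 1331 and 1183 CPM in normal lung, and H2-K1 had 1621, 1372 and 1329 CPM in AML lung and 943, 1268 and 1107 CPM in normal lung. The immunoproteasome subunit Psmb8 had 252, 280 and 245 CPM in AML lung and 137, 209 and 159 CPM in normal lung (0.62 ± 0.173 on the log2 scale, SE; adjusted p = 0.288 in edgeR).

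**Figure D4:**
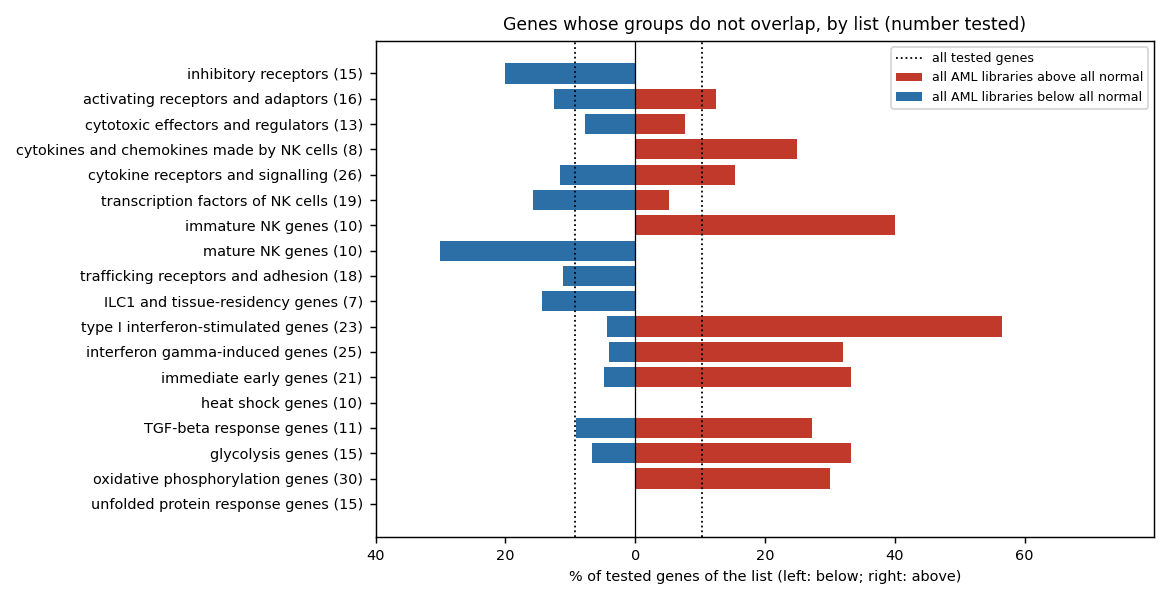
Share of the tested genes of each list whose 3 AML lung libraries all lie above (right, red) or all below (left, blue) the 3 normal lung libraries, with the same shares over all tested genes as dotted lines, 10.2% above and 9.3% below. Type I interferon-stimulated genes reach 56.5% above, and immature NK genes 40% above.

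All 30 genes of oxidative phosphorylation had a positive log2 change, with a median of 0.27, where 4909 of all 9262 genes were positive. Of the 30, 9 lay above and 0 below, or 30% and 0%, beside 10.2% and 9.3% of all genes, while 0 passed. Their median was 0.42 without AML lung replicate 3 and 0.32 without carrying cells. Cox4i1 had 505, 597 and 568 CPM in AML lung and 367, 435 and 428 CPM in normal lung, and Cox8a had 548, 561 and 451 CPM in AML lung and 378, 449 and 405 CPM in normal lung. Of 15 glycolysis genes, 0 passed, 5 lay above and 1 below, with a median log2 change of 0.38, against 0.18 without AML lung replicate 2. By share, 33.3% lay above and 6.67% below, beside the same shares of all genes. Gapdh had 331, 422 and 502 CPM in AML lung and 153, 235 and 227 CPM in normal lung (1.03 ± 0.216 on the log2 scale, SE; adjusted p = 0.288 in edgeR). Pfkp, on the other side, had 189, 173 and 176 CPM in AML lung and 253, 221 and 231 CPM in normal lung.

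Immediate early genes, which follow receptor signals and also tissue digestion, included 7 of 21 that lay above and 1 below, with 0 passing and a median log2 change of 0.59, against 0.14 without AML lung replicate 3. In that setting 1 gene of the list passed as higher and 1 as lower in AML lung, and 14 were positive and 7 negative. The share above was 33.3% and that below 4.76%, beside 10.2% and 9.3% of all genes. Fos had 82.8, 91.1 and 942 CPM in AML lung and 62.8, 142 and 140 CPM in normal lung, so its mean was set by 1 library. The most abundant were Jund and Junb. Jund had 845, 655 and 801 CPM in AML lung and 526, 743 and 570 CPM in normal lung, and Junb had 770, 660 and 991 CPM in AML lung and 427, 625 and 561 CPM in normal lung. Egr3, induced by antigen and activating receptors, had 30.4, 26.5 and 19.0 CPM in AML lung and 7.85, 5.87 and 1.30 CPM in normal lung (2.41 ± 0.515 on the log2 scale, SE; adjusted p = 0.288 in edgeR, and 0.0316 without AML lung replicate 3). Nr4a3 had 201, 265 and 224 CPM in AML lung and 164, 150 and 143 CPM in normal lung (0.59 ± 0.147 on the log2 scale, SE; adjusted p = 0.288 in edgeR).

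None of the 10 heat shock genes and 15 unfolded protein response genes passed or was without overlap in all 6 libraries. Without AML lung replicate 3 the chaperone genes Hspa1b and Hsph1 were lower in AML lung, at edgeR adjusted p of 0.0397 and 0.0336. Hspa1b had 3.16, 7.17 and 40.6 CPM in AML lung and 88.4, 54.3 and 17.8 CPM in normal lung, so AML lung replicate 3 lay inside the range of normal lung. Among the heat shock genes Hsp90ab1 had 962, 1246 and 1279 CPM in AML lung and 1005, 1051 and 759 CPM in normal lung, and Hspa8 had 591, 609 and 1116 CPM in AML lung and 575, 640 and 624 CPM in normal lung. Hsp90b1 had 288, 181 and 347 CPM in AML lung and 261, 336 and 241 CPM in normal lung, and Hspa5 had 251, 214 and 411 CPM in AML lung and 283, 273 and 210 CPM in normal lung. Of 11 genes of the response to transforming growth factor beta, 0 passed, 3 lay above and 1 below. These are 27.3% and 9.09%, beside 10.2% and 9.3% of all genes. The median log2 change was -0.04 and lay on both sides of 0 with 1 library left out. It was 0.26 without AML lung replicate 1, 0.04 without AML lung replicate 2, -0.10 without AML lung replicate 3, 0.06 without normal lung replicate 1 and also 0.05 without normal lung replicate 3. Smad3 had 509, 381 and 304 CPM in AML lung and 580, 461 and 531 CPM in normal lung, and Ldlrad4 had 181, 267 and 281 CPM in AML lung and 233, 246 and 272 CPM in normal lung. Smad7, an inhibitor of that pathway, had 91.7, 86.1 and 76.2 CPM in AML lung and 106, 114 and 128 CPM in normal lung.

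The leading genes were then read within maturation classes, a split added after the values were seen and given without a test. The classes were made on unthinned cells, so they follow depth as well as stage, and the Cd27 class includes cells with Itgam. Members with neither gene numbered 16, 145 and 825 in AML lung and 17, 64 and 292 in normal lung. The classes are thus not equal stages between libraries. Members with a Cd27 UMI numbered 82, 124 and 68 in AML lung and 59, 32 and 85 in normal lung. Those with Itgam and no Cd27 numbered 110, 133 and 307 in AML lung and 103, 151 and 279 in normal lung. In the Cd27 class Nrgn had 247, 231 and 126 CPM in AML lung and 31.3, 79.9 and 31.6 CPM in normal lung. In the Itgam class it had 192, 116 and 89.3 CPM in AML lung and 17.2, 20.6 and 20.98 CPM in normal lung. Nrgn separated the groups within both classes, whose cells are also part of the sums by which it was chosen. Hs3st3b1 did the same in the other direction, with 60.7, 64.3 and 68.0 CPM in AML lung and 141, 154 and 140 CPM in normal lung in the Itgam class. Prdm1 in the Itgam class had 107, 49.8 and 68.0 CPM in AML lung and 166, 139 and 172 CPM in normal lung. Clnk in the Itgam class had 510, 333 and 214 CPM in AML lung and 739, 662 and 699 CPM in normal lung. Klrg1 in the Itgam class had 177, 74.0 and 73.8 CPM in AML lung and 190, 180 and 178 CPM in normal lung, with AML lung replicate 1 close to normal lung.

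**Figure D5:**
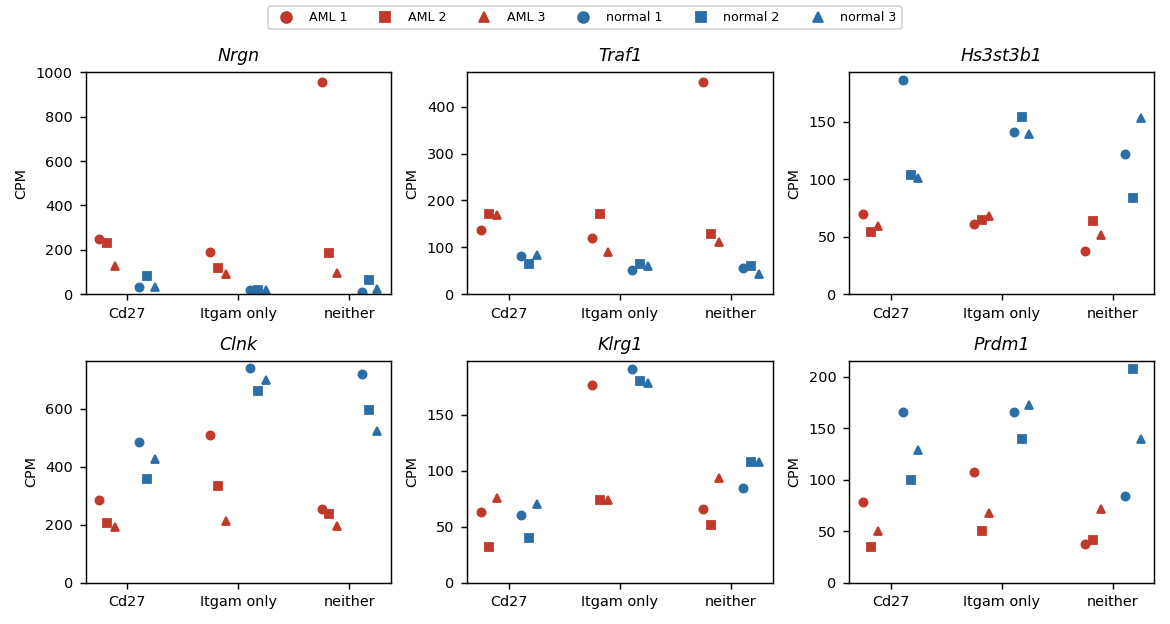
CPM of 6 genes in members with a Cd27 UMI, with an Itgam and no Cd27 UMI, and with neither, 1 symbol per library, AML lung in red to the left of normal lung in blue. Nrgn and Traf1 are higher and Hs3st3b1 and Clnk lower in every AML lung library of all 3 classes, and the class with neither holds as few as 16 cells in AML lung replicate 1.

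Single-cell detection of the leading genes was read at 1000 UMIs per cell. The genes were chosen by sums of UMIs from the same members, so these shares describe them and are no separate check. Nrgn had a UMI in 16.9%, 10.8% and 6.82% of members in AML lung and in 2.25%, 2.07% and 2.59% in normal lung. Bcl2a1b had one in 7.25%, 8.06% and 12.4% in AML lung and in 2.81%, 2.48% and 1.30% in normal lung. Hs3st3b1 had one in 6.76%, 6.39% and 4.59% in AML lung and in 14.0%, 11.6% and 11.7% in normal lung. Unthinned, Nrgn had a UMI in 43.8%, 33.1% and 9.33% of members in AML lung and in 9.50%, 10.9% and 5.64% in normal lung.

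CD8 T cells, the other main cytotoxic lymphocytes, were compared in a single model with the library as a block. They were cells with a Cd3 and a Cd8a or Cd8b1 UMI, no Cd4 UMI, fewer than 3 of the 8 NK genes and the same limits on cycling and other-type genes, 156, 473 and 309 in AML lung and 141, 278 and 454 in normal lung. The difference between the AML effect in NK cells and that in CD8 T cells passed an adjusted p of 0.05 in edgeR's quasi-likelihood test for 0 of 10207 genes, 0%, while 561 had an unadjusted p under 0.05, which is 5.5%. In CD8 T cells alone 0 of 9146 genes passed, and 771 had an unadjusted p under 0.05, which is 8.43%. The effects of the 2 cell types were thus not shown to differ for any gene. Traf1, chosen after its values were seen, was among the genes of smallest p. In CD8 T cells it had 110, 89.5 and 113 CPM in AML lung and 133, 99.4 and 88.5 CPM in normal lung, a log2 change of -0.04 ± 0.20 (SE), against 1.27 ± 0.168 (SE) in NK cells. The difference was 1.32 ± 0.244 (SE; edgeR adjusted p = 0.853). For Pglyrp1 the difference in the single model with the library block was 0.15, and its edgeR adjusted p was 1. Separate fits gave a log2 change of 1.39 ± 0.565 (SE) in CD8 T cells and 1.27 ± 0.132 (SE) in NK cells. Which of the 2 cell types changed more thus depended on the fit.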

How the data were processed

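The authors deposited raw UMI counts of 32285 features per barcode. The submitters' processing notes name Cell Ranger 7.0.0 and mm10. The sources used here do not give the filter on barcodes. Library totals ranged from 43913245 to 66513826 UMIs. Kept barcodes had at least 500 UMIs, at least 200 genes and under 10% mitochondrial UMIs, 71634 of 73095. Member UMIs were summed per library, 1328156 to 2236735 each, since cells are not replicates, and edgeR 4.0.16 (R 4.3.3) tested the sums (TMM, filterByExpr, quasi-likelihood F test, Benjamini-Hochberg adjustment at 0.05). CPM values of members use TMM-scaled library sizes, except those of the rule genes, other cells, 40-gene sums and maturation classes, which use plain sums. The SE is the log2 change over the square root of F. On simulated counts over 9077 genes 39% of 2-fold and 99% of 4-fold changes were recovered, with 3.50% of calls false. The simulation gave every gene a dispersion (scatter between libraries beyond counting noise) of 0.05, against a fitted common value of 0.0626. It held no library with transcripts of other cell types, so these rates need not hold for the libraries used here. Scrublet in scanpy 1.11.5 called doublets, 0.877% to 4.70% of kept cells, for an alternative only. A library where it marked under 0.5% took the median of the thresholds elsewhere. Exact binomial intervals are at 95% and cover counting error only. Droplets can hold free RNA. Counts of libraries of one group differed beyond sampling noise (chi-square per degree of freedom 2.95 to 16.9).

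The members and gene lists were chosen with earlier results of these data known. Genes named are the 6 of smallest p on each side above a mean log2 CPM of 5, as under 6 passed per side, the genes of each list that passed with the 2 most abundant, and others named for their values. Gene models, ribosomal, mitochondrial, antigen receptor and sex-linked genes were left out of the rule. Positions come from GENCODE on GRCm38, the assembly also called mm10. Alternatives were RLE size factors, DESeq2 1.42.0, no low count filter, a replicate block, each library left out, other cell filters and equal cell numbers. Leaving out carrying cells and requiring 5 rule genes were added after seeing the data.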

Additional observations from a re-analysis of the deposited data

How the results depend on the processing

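Beside 2 genes past the threshold in edgeR, DESeq2 called 113, a fit with no low count filter 22, at least 4 rule genes 7, at least 2 rule genes 0, at least 1000 UMIs per cell 0, cells with ILC1 genes left out 5 and equal cells per library 1. Among settings chosen after seeing the data, leaving out carrying cells gave 17, at least 5 rule genes 12 and both together 39. With 1 library left out the count ran from 0 to 74, where 74 is the value without AML lung replicate 3. Same-numbered libraries correlated at 0.309, -0.0534 and 0.353 in their deviations from the group mean, and libraries of unlike number at -0.359 to 0.136. These values do not settle whether the numbers pair the samples. The main fit used no pairing, and a replicate block gave 36 calls. The difference between NK and CD8 T cells gave 189 calls with no low count filter and 0 to 1 with 1 library left out. The share of NK cells was 1.01 percentage points higher in AML lung among lymphocytes. In differences of percentage points at 1000 UMIs, Cd27 with Itgam turned to -0.12 at 500 UMIs and ran from -0.43 to 0.531 with 1 library left out, and neither gene ran from -1.60 to 4.72, Cxcr6 from -0.247 to 0.139, Itga1 from -0.946 to 0.351, Il7r from -1.12 to 1.04 and Gzmb from -7.01 to 4.72. Il7r was -0.32 unthinned. With ILC1 cells left out, Cxcr6, Itga1 and Il7r are 0 by construction and gave no value. The 12 named genes were chosen by p in the same libraries that the settings reuse, so their direction was likely to hold. It held in 240 of 240 pairs of gene and setting, with 15 losing and 63 gaining the threshold. The cause of these moves was not tested. Depth limits single-cell shares most in AML lung replicate 3, at a median of 1155 UMIs.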
